A study of Homo sapiens with 50 samples.

Results

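*PRDM1*, *CD86*, *HKDC1*, *STEAP1* and *DOK3* are 5 of the 25940 gene names on the arrays and were chosen on their higher level in unirradiated H1299*shRAD9* cells than in unirradiated H1299 cells. Every probe that carries one of these names was taken, 10 of 34127 probes in all. H1299 is a human non-small cell lung carcinoma line. H1299*shRAD9* cells are the same line after stable introduction of the pSUPER.retro.puro vector, which expresses a short hairpin RNA against *RAD9*, with selection in puromycin. More than 1 stable clone was made, and the labels do not name the clone behind a sample. The parental H1299 cells were untransfected, so the hairpin, the vector, the drug selection and the cloning cannot be told apart in any difference between the lines. Each line had 5 exposure groups of 5 arrays, which gives 50 arrays, and all cells grew on concentric Mylar dishes. The CTL group was sham irradiated. The directly irradiated cells had received 1 Gy of α particles (4He ions) and the bystander cells had shared their dish, and RNA was taken after 4 h. Dishes were picked by the share of binucleate bystander cells with micronuclei, which the paper found to range widely. BP cells are bystanders with a high share, and BN cells are bystanders with a share at background, as in unirradiated cells. DBP and DBN cells are the directly irradiated cells of those dishes. The irradiated groups were therefore picked on a damage readout of the same dishes. The replicates are separate labelled samples, called independent in the methods, and their number limits the precision of every value.

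The members act in different places in the cell. *PRDM1* encodes BLIMP-1, a zinc finger repressor of transcription best known for driving B cells towards plasma cells. *CD86* encodes a B7 family ligand that antigen-presenting cells show to CD28 and CTLA4 on T cells, and *DOK3* encodes an adaptor that dampens signalling below immune receptors. *STEAP1* encodes a membrane protein of the metalloreductase family that is raised in many carcinomas, and *HKDC1* encodes a hexokinase, the enzyme class that phosphorylates glucose as it enters the cell. Leukocytes are the usual source of *PRDM1*, *CD86* and *DOK3*, and carcinoma lines can express them too.

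Promoter windows of the members are shown because the genes were higher in the same cells, so a reader can compare what lies before their start sites. They were taken from RefSeq on GRCh38.p14, where all 5 genes matched with 8 windows of 250 bases that end at the base before a start site. Of those, 1 window a gene is printed 5′ to 3′ on the gene's strand, with matches to the searched motifs in capitals. The *PRDM1* window is the second of 2 and lies at chr6:106098691-106098940 on the plus strand, the *CD86* window is the first of 2 at chr3:122055112-122055361 on the plus strand, and the *DOK3* window is the second of 2 at chr5:177510402-177510651 on the minus strand. *HKDC1* has 1 window, at chr10:69220082-69220331 on the plus strand, and *STEAP1* has 1, at chr7:90154219-90154468 on the plus strand.
PRDM1 promoter window 2: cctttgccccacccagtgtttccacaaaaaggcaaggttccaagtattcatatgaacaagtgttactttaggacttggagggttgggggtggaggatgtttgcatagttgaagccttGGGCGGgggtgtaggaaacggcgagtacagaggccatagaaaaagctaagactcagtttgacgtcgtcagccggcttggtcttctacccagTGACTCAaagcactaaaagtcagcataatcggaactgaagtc
CD86 promoter window 1: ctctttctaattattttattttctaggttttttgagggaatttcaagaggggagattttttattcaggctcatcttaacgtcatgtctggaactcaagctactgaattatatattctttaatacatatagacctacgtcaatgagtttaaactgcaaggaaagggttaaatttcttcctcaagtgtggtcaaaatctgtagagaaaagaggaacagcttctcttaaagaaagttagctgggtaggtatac
DOK3 promoter window 2: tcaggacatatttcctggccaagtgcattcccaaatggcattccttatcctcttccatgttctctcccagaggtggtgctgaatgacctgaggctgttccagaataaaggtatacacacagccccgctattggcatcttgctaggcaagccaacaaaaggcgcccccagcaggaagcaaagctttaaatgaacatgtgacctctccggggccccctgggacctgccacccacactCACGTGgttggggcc
STEAP1 promoter window 1: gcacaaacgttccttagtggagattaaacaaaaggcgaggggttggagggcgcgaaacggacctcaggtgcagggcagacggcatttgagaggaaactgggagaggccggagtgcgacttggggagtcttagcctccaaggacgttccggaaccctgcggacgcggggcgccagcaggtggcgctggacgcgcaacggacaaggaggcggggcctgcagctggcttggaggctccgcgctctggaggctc
HKDC1 promoter window 1: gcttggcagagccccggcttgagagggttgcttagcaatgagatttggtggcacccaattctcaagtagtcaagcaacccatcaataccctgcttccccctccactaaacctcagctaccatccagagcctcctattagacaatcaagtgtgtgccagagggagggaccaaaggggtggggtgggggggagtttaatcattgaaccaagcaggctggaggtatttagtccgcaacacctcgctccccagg
The searched motifs, on both strands, were TATAAA (the box of that name), GGGCGG (GC box), TGACGTCA (CRE core), TGANTCA (AP-1 site), CACGTG (E-box), TTCNNNGAA (GAS element), AGNGAAAG (a core of the PRDM1 site) and GAAANNGAA (an IRF core), and the last 2 can overlap each other. Among the 8 windows, the second *PRDM1* window held a GC box at position −133 from the start site and an AP-1 site at −42, and the second *DOK3* window held an E-box at −15. The GC box stands in 42.6% of all 35114 windows of this length, the AP-1 site in 6.57% and the E-box in 6.35%. No other searched motif matched in the members' windows. These others stand in 10.7% (TATA box), 1.65% (CRE core), 6.57% (GAS element), 6.57% (PRDM1 core) and 6.88% (IRF core) of all windows. Base composition differed between windows, also between those of 1 gene. The *STEAP1* window held 64.4% G and C with 21 CpG pairs. The printed *CD86* window held 34.0% with 2 and the other *CD86* window 52.0% with 4, against medians of 58.0% and 11 over all windows.

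The array probes are 60 bases long, and every member but *CD86* has more than 1. The positions below are those of the array design on hg19. *PRDM1* was read by probes A_33_P3342081 (chr6:106557662-106557721) and A_23_P350451 (chr6:106555123-106555182), both on the plus strand. *CD86* had 1 probe, A_24_P131589 (chr3:121839246-121839305, plus strand). *HKDC1* was read by A_23_P202427 (chr10:71026958-71027017) and A_33_P3335233 (chr10:71017113-71017172), on the plus strand. *STEAP1* was read by A_23_P31453 (chr7:89794004-89794063) and A_24_P406334 (chr7:89790531-89790590), on the plus strand, and the records that the array design gives for the second of these name *STEAP1* and its near copy *STEAP1B*, so its signal is uncertain between them. *DOK3* was read on the minus strand by A_33_P3228564 (chr5:176930164-176930223), A_32_P121085 (chr5:176928935-176928994) and A_33_P3253144 (chr5:176930753-176930812), and the records of the last are of another *DOK3* transcript than those of the other two. An hg19 gene model was not used here, so exons and introns are not assigned. The 3 probes printed next are the ones on which a gene's second reading rests, with no part capitalised.
PRDM1 probe A_23_P350451: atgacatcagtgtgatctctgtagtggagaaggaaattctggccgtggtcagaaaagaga
HKDC1 probe A_33_P3335233: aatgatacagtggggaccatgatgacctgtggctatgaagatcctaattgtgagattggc
STEAP1 probe A_24_P406334: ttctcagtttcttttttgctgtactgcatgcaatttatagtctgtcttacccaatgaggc
Of the 10 member probes, 8 passed the filters and were tested. A_23_P350451 of *PRDM1* and A_33_P3335233 of *HKDC1* were well above background on 35 and 36 of 50 arrays, too few to pass, and are given with an exact permutation test only.

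Levels are log2 of the background-corrected intensity over the median of the same array, so 0 is the array's middle probe, and levels of different probes are not compared. The share of probes well above background was 55.5% to 73.3% on the 25 H1299*shRAD9* arrays and 59.9% to 83.7% on the 25 H1299 arrays. Over all 12193 probes tested, the median difference between the lines (H1299*shRAD9* minus H1299) was 0.18 to 0.23 in the irradiated groups, and −0.10 to 0.03 when arrays were scaled to their 75th percentile instead, so a member's difference is to be read against a shift of this size. The probe for *RAD9A*, the targeted gene, was lower in unirradiated H1299*shRAD9* cells, at 81.1% of the H1299 level (exact permutation test, two-sided, p = 0.0159, n = 5 a group). In the irradiated groups it stood at 80.6% (DBP), 93.5% (BP), 104% (DBN) and 94.7% (BN), with exact permutation p-values of 0.0873, 0.444, 0.802 and 0.611 (n = 5). The difference in DBP cells (−0.31) was thus as large as in unirradiated cells (−0.30), with a wider spread among the H1299 arrays (SD 0.336 against 0.126). These are readings of RNA by 1 probe. The paper chose its clones on RAD9 protein, which its Western blot showed reduced relative to the parental cells, and protein was not measured here. Markers of H1299 were checked as well. *VIM*, *CDH2*, *KRT7*, *KRT8* and *KRT18* were above background on all 50 arrays, while *CDH1* and *EPCAM* were above it on 5 arrays each. Arrays were run on 13 slides, and only 2 slides held both lines, with 7 arrays, so for the other arrays slide and line cannot be told apart.

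The difference between the lines in unirradiated cells is the contrast the genes were chosen on, so its values describe the choice and are not tested. The mean difference was 2.22 for *PRDM1* (A_33_P3342081), 1.85 for *CD86*, 2.34 for *HKDC1* (A_23_P202427), 0.89 for *STEAP1* (A_23_P31453) and 1.90 for *DOK3* (A_32_P121085), which are 4.65-, 3.61-, 5.06-, 1.86- and 3.74-fold. The probes that went the least way were A_33_P3335233 of *HKDC1*, with a difference of 0.05, and A_24_P406334 of *STEAP1*, with 0.61. Among all probes tested, 11.7% passed the thresholds as higher in H1299*shRAD9* in this contrast.

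**Figure D1:**
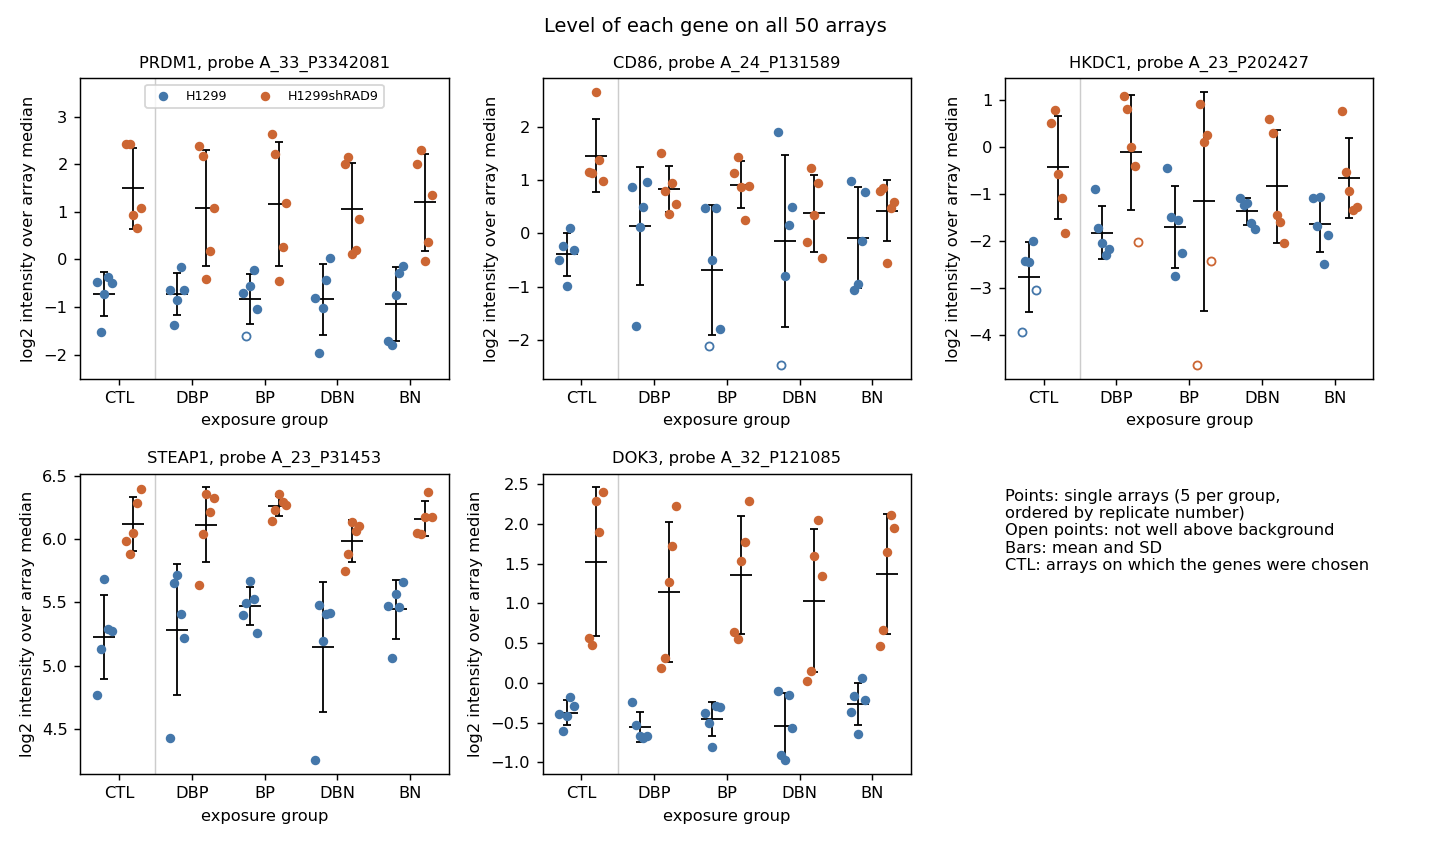
Level of each gene (log2 intensity over the array median, vertical axis) on all 50 arrays, by exposure group (horizontal axis), for the probe of each gene named in the panel title. Filled points are arrays on which the probe was well above background. *STEAP1* sits between 5.64 and 6.40 in H1299*shRAD9* cells and between 4.25 and 5.71 in H1299 cells, while *HKDC1* overlaps between the lines in every irradiated group.

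The difference between the lines was tested in each of the DBP, BP, DBN and BN groups, on arrays other than the CTL arrays that chose the genes. These tests are not independent of that choice or of each other. Samples of a line with the same replicate number deviated together, with mean correlations between CTL and irradiated arrays of 0.493 to 0.54 in H1299*shRAD9* cells and 0.142 to 0.423 in H1299 cells, so the 4 groups are not 4 separate repeats. A probe was called where limma gave p under 0.006 and a Benjamini-Hochberg adjusted p under 10% over all 12193 probes. Of the 8 member probes tested, 5 were called higher in DBP cells, against 3.25% of all probes, and 5 in BP cells, against 6.3% of all probes. In DBN and BN cells 4 of 8 were called higher, against 4% and 6.27% of all probes. No member probe was called lower, and all 32 differences were above 0, with medians of 0.84, 0.85, 0.76 and 0.79. The medians over all probes were also above 0, at 0.18, 0.18, 0.20 and 0.23. Probes of 1 gene share their source, so by gene the called counts were 4, 4, 3 and 3 of 5. *PRDM1*, *STEAP1* and *DOK3* had a called probe in all 4 groups, *CD86* in BP cells and *HKDC1* in DBP cells. In a sample of mixed cells, a gene lower because fewer cells express it and one lower because each cell holds less RNA cannot be told apart.

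**Figure D2:**
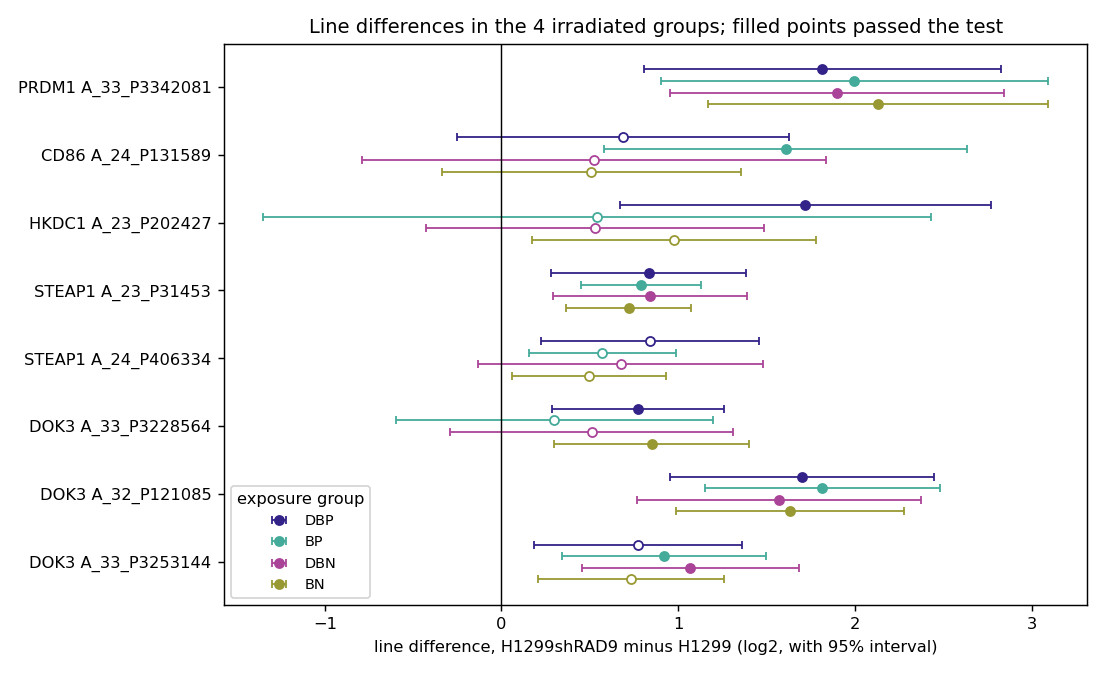
Difference between the lines (H1299*shRAD9* minus H1299, log2, horizontal axis) for each tested member probe (rows) in the 4 irradiated groups (colours), with 95% intervals from limma and 5 arrays a line. Filled points passed the thresholds, as they did for *PRDM1* A_33_P3342081, *STEAP1* A_23_P31453 and *DOK3* A_32_P121085 in all 4 groups.

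*PRDM1*, the repressor, had its levels in H1299*shRAD9* cells spread over more than 2 log2 units in each irradiated group. In replicate order 1 to 5, the BN levels at A_33_P3342081 were 2.0, 2.30, −0.03, 0.36 and 1.35 in H1299*shRAD9* cells and −1.72, −1.79, −0.75, −0.29 and −0.13 in H1299 cells. The lowest H1299*shRAD9* array lay just above the highest H1299 array, so the groups did not overlap. BP levels were 2.64, 2.22, −0.45, 0.26 and 1.19 against −0.71, −1.61, −0.56, −0.21 and −1.04. Here replicate 3 of H1299*shRAD9* fell within the H1299 range and replicates 1 and 2 stood highest. DBP levels were 2.38, 2.18, −0.41, 0.19 and 1.08 against −0.65, −1.38, −0.84, −0.15 and −0.64, with replicate 3 again inside the H1299 range. DBN levels were 2.0, 2.14, 0.11, 0.21 and 0.85 against −0.80, −1.96, −1.02, −0.42 and 0.03, and these groups did not overlap.

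The line difference for *PRDM1* was 2.13 in BN cells (95% interval 1.17 to 3.09, 4.38-fold, limma adjusted p = 0.0141). It was 2.0 in BP cells (0.90 to 3.09, adjusted p = 0.037), 1.90 in DBN cells (0.95 to 2.85, adjusted p = 0.0408) and 1.81 in DBP cells (0.80 to 2.83, adjusted p = 0.0436). All 4 were called higher. The BN call held without each replicate in turn and was lost with normexp background correction (1.40, limma adjusted p = 0.136). The DBP call was lost without replicate 1, 2 or 5 (limma adjusted p = 0.0748, 0.135 and 0.143), the BP call without the same replicates (0.0909, 0.0859 and 0.157), and the DBN call without replicate 3 (0.136), while the differences stayed between 1.38 and 2.09 there. The BP call was also lost in the authors' table (1.63, limma adjusted p = 0.0903). Where the adjusted p stayed under 10%, it was the threshold on the unadjusted p that was missed. The second probe, whose sequence is printed above, was above background on fewer arrays and went the same way. Its differences were 1.47 (DBP), 1.76 (BP), 1.36 (DBN) and 2.01 (BN), and exact permutation tests (two-sided, n = 5 a group, unadjusted) gave p = 0.0635, 0.0397, 0.0635 and 0.00794. The last is the smallest p that 5 against 5 arrays allow.

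*DOK3*, the adaptor, was separated most fully by A_32_P121085. In replicate order, DBP levels were 0.18, 0.31, 1.27, 1.73 and 2.22 in H1299*shRAD9* cells and −0.24, −0.53, −0.66, −0.70 and −0.67 in H1299 cells. BP levels were 0.64, 0.55, 1.53, 1.77 and 2.29 against −0.38, −0.51, −0.81, −0.29 and −0.31. In both groups replicates 1 and 2 of H1299*shRAD9* were the low ones and no array overlapped with H1299. DBN levels were 0.03, 0.14, 1.60, 2.05 and 1.34 against −0.10, −0.90, −0.97, −0.15 and −0.57, and BN levels were 0.46, 0.66, 1.65, 2.11 and 1.95 against −0.36, −0.17, −0.65, 0.06 and −0.22. The same 2 replicates were low, and again the lines did not overlap.

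The line difference at this *DOK3* probe was 1.82 in BP cells (95% interval 1.15 to 2.48, 3.52-fold, limma adjusted p = 0.00682). It was 1.63 in BN cells (0.99 to 2.28, adjusted p = 0.00655), 1.70 in DBP cells (0.96 to 2.45, adjusted p = 0.0158) and 1.57 in DBN cells (0.77 to 2.37, adjusted p = 0.044). All 4 were called higher. Leaving out any 1 replicate kept the DBP, BP and BN calls, and the DBN call was lost without replicate 3, 4 or 5 (limma adjusted p = 0.266, 0.187 and 0.101). The BN call was lost with normexp background correction (1.23, limma adjusted p = 0.136). The other probes of *DOK3* moved less. A_33_P3253144 differed by 0.92 in BP cells and 1.07 in DBN cells, both called (limma adjusted p = 0.0538 and 0.0652), and by 0.77 in DBP and 0.73 in BN cells, not called (0.106 and 0.0706). A_33_P3228564 differed by 0.77 in DBP cells and 0.85 in BN cells, both called (0.0654 and 0.0542), and by 0.30 in BP and 0.51 in DBN cells, not called (limma adjusted p = 0.68 and 0.395). Each of these 4 calls was lost without 1 or more single replicates, and those of A_33_P3228564 were lost in 11 (DBP) and 12 (BN) of 16 alternatives. The 3 *DOK3* probes thus gave 4, 2 and 2 calls of 4, and only A_32_P121085 gave a difference above 1.5.

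*STEAP1*, the metalloreductase family member, was well above background on all 50 arrays at both of its probes. BP levels at A_23_P31453 in replicate order were 6.15, 6.23, 6.36, 6.29 and 6.27 in H1299*shRAD9* cells and 5.40, 5.50, 5.67, 5.53 and 5.26 in H1299 cells. BN levels were 6.05, 6.04, 6.17, 6.38 and 6.18 against 5.48, 5.06, 5.57, 5.47 and 5.66. The lines did not overlap in either group. DBN levels were 5.75, 5.89, 6.14, 6.06 and 6.11 against 4.25, 5.48, 5.19, 5.41 and 5.42, also without overlap, and DBP levels were 5.64, 6.04, 6.36, 6.22 and 6.33 against 4.43, 5.66, 5.71, 5.41 and 5.22. In DBP cells replicate 1 of H1299*shRAD9* lay below 2 of the H1299 arrays. Replicate 1 was the lowest H1299 array in both directly irradiated groups.

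The line difference for *STEAP1* was 0.79 in BP cells (95% interval 0.45 to 1.13, 1.73-fold, limma adjusted p = 0.0151) and 0.72 in BN cells (0.36 to 1.07, adjusted p = 0.021). It was 0.83 in DBP cells (0.28 to 1.38, adjusted p = 0.0734) and 0.84 in DBN cells (0.29 to 1.39, adjusted p = 0.087). All 4 were called higher, the last 2 with unadjusted p of 0.00596 and 0.00545, just inside the threshold. The BP call held under every alternative run. The BN call was lost with quantile normalization and with normexp background correction (limma adjusted p = 0.074 and 0.136) and without replicate 4 (0.101), the DBP call without replicate 2, 3, 4 or 5 (0.102 to 0.227) and the DBN call without replicate 1, 3, 4 or 5 (0.0818 to 0.287). With 75th percentile scaling or quantile normalization, or in the authors' table, neither of these last 2 calls was made (limma adjusted p = 0.0883 to 0.12). A_24_P406334, the probe that also matches *STEAP1B*, differed by 0.84 (DBP), 0.57 (BP), 0.68 (DBN) and 0.50 (BN) and was not called in any group (limma adjusted p = 0.0961, 0.081, 0.268 and 0.116).

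*CD86*, the T cell costimulatory ligand, was called in BP cells only, and no test showed that the groups differ in this. BP levels in replicate order were 1.13, 1.44, 0.87, 0.24 and 0.89 in H1299*shRAD9* cells and 0.48, −2.12, −0.51, 0.48 and −1.79 in H1299 cells. Replicates 2 and 5 of H1299 were the low ones, replicate 2 was not above background, and replicate 4 of H1299*shRAD9* lay below 2 H1299 arrays. The difference was 1.61 (95% interval 0.58 to 2.63, limma adjusted p = 0.0569). The call was lost in 10 of 17 alternatives. These include leaving out replicate 2, 3 or 5 (limma adjusted p = 0.122, 0.134 and 0.204), 75th percentile scaling (1.42, 0.0897), quantile normalization (0.0785), tests without the 1.3-fold criterion (0.0725) and the authors' table (1.08, 0.142). DBN levels in H1299 cells ran from −2.47 to 1.90, a range that covers all 5 H1299*shRAD9* arrays (−0.47 to 1.24). In DBP, DBN and BN cells the difference was 0.69, 0.52 and 0.51, none of them called (limma adjusted p = 0.323, 0.612 and 0.369), with intervals that reached from −0.79 to 1.83 in DBN cells.

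*HKDC1*, the hexokinase, gave the least even readings of the 5 genes. DBP levels at A_23_P202427 in replicate order were 1.08, 0.81, 0.00, −0.41 and −2.02 in H1299*shRAD9* cells and −0.89, −1.72, −2.05, −2.30 and −2.18 in H1299 cells. Replicate 5 of H1299*shRAD9*, not above background, lay inside the H1299 range and the other 4 lay above it. The difference was 1.72 (95% interval 0.67 to 2.77, 3.29-fold, limma adjusted p = 0.0602), called higher. The call was lost in 8 of 16 alternatives. These include leaving out replicate 1, 2, 3 or 4 (limma adjusted p = 0.0583, 0.143, 0.193 and 0.16), 75th percentile scaling (0.0811), all groups in 1 fit (0.0681) and normexp background correction, where the difference was 0.94 (0.133).

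BP levels of *HKDC1* were −4.64, 0.91, 0.11, 0.27 and −2.44 in H1299*shRAD9* cells and −0.45, −1.49, −2.74, −1.55 and −2.25 in H1299 cells. Replicates 1 and 5 of H1299*shRAD9* were not above background on those arrays, and the other 3 lay above every H1299 array. The difference was 0.54 with all arrays and 1.41 without the H1299*shRAD9* array of replicate 1, and neither was called (limma adjusted p = 0.731 and 0.148). In the authors' table, where both arrays below background are blank, it was 2.0 and called (limma adjusted p = 0.0213). In DBN and BN cells the difference was 0.53 and 0.98, not called (0.462 and 0.1). The second *HKDC1* probe, printed above, gave 0.03, 0.01, −0.17 and 0.23 in DBP, BP, DBN and BN cells, and exact permutation tests (two-sided, n = 5, unadjusted) gave p = 0.905, 0.984, 0.77 and 0.603. The 2 probes of this gene thus did not give the same reading, in the unirradiated cells either.

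Whether the line differences varied among the 4 irradiated groups was asked in 1 fit of the 40 irradiated arrays. No member probe was called (limma adjusted p = 0.993 to 0.998, none of 8 at an unadjusted p under 0.05, and none by the random-variance test of the methods, which shares variance among probes). The lowest unadjusted p was that of *CD86*, 0.132 (F test in limma over 40 arrays). Over all probes 0% were called, with 221 at an unadjusted p under 0.05.

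Each irradiated group was also set against the unirradiated cells of its line, within replicate numbers. These comparisons share the CTL arrays, which are the ones the genes were chosen on, so a member's CTL level is high in H1299*shRAD9* cells and low in H1299 cells by that choice. None of 64 member tests was called, 10 had an unadjusted p under 0.05, and the lowest limma adjusted p was 0.109. Over all probes, 2.26% (DBP), 1.89% (BP), 4.65% (DBN) and 0.0492% (BN) were called in H1299*shRAD9* cells and 0.0574%, 0%, 0.0164% and 0% in H1299 cells. By the methods' random-variance test none of the 64 was called either.

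*PRDM1* levels at A_33_P3342081 in H1299*shRAD9* CTL cells were 2.42, 2.41, 0.93, 0.65 and 1.09 with replicates 1 and 2 the highest, as they were after irradiation. The change from CTL was −0.42 (DBP), −0.33 (BP), −0.44 (DBN) and −0.30 (BN), and 5 of 5 replicates were lower in DBP and DBN cells. In H1299 cells it was between −0.22 and −0.02. *CD86* levels in H1299*shRAD9* CTL cells were 1.16, 1.13, 2.66, 1.38 and 0.98, with replicate 3 far above the others. The change from CTL was −0.63 (DBP), −0.54 (BP), −1.08 (DBN) and −1.03 (BN), with limma adjusted p = 0.401, 0.508, 0.131 and 0.332. With all groups of the line in 1 fit, *CD86* (−1.08, limma adjusted p = 0.082) and *DOK3* A_32_P121085 (−0.49, limma adjusted p = 0.0775) were past the thresholds as lower in DBN cells than in CTL cells. Both rest on the CTL arrays on which the genes were chosen as high, and that of *CD86* also on the CTL array at 2.66, so they are given as a description.

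*HKDC1* moved most in H1299 cells. CTL levels were −3.93, −2.43, −2.45, −2.00 and −3.05, and replicates 1 and 5 of these were not above background. DBN levels were −1.08, −1.24, −1.18, −1.62 and −1.74, all above every CTL array. The change from CTL was 1.40 in DBN cells, higher in 5 of 5 replicates, and 0.95 (DBP), 1.08 (BP) and 1.13 (BN), higher in 4 of 5 each. None was called (limma adjusted p = 0.603, 0.715, 0.764 and 1). *STEAP1* and the 3 *DOK3* probes changed from CTL by −0.49 to 0.14 in H1299*shRAD9* cells and by −0.27 to 0.39 in H1299 cells.

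Directly irradiated cells and their bystanders were compared within dishes of 1 kind. No member probe was called in DBP against BP or in DBN against BN, in either line, with differences of −0.33 to 1.05 in H1299*shRAD9* cells and −0.38 to 0.83 in H1299 cells. The lowest limma adjusted p over these 32 tests was 0.722 (1 had an unadjusted p under 0.05). Over all probes, 0.139% were called in each of the 2 comparisons in H1299*shRAD9* cells and 0% in each in H1299 cells. The widest difference, 1.05 for *HKDC1* in H1299*shRAD9* cells, holds the BP array at −4.64 described above.

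The spread of *PRDM1* and of *DOK3* at A_32_P121085 within H1299*shRAD9* cells followed the replicate numbers. Over the 4 irradiated arrays of a number, *PRDM1* averaged 2.25 (replicate 1), 2.21 (2), −0.19 (3), 0.25 (4) and 1.12 (5). *DOK3* at A_32_P121085 averaged 0.33, 0.42, 1.51, 1.91 and 1.95 in the same order, so this probe was low in the replicates where *PRDM1* was high. The other *DOK3* probes did not all share this. A_33_P3253144 averaged 0.36, 0.45, 0.68, 0.94 and 1.14, and A_33_P3228564 averaged 1.45, 1.23, 1.66, 1.47 and 1.00, with replicate 5 lowest. The replicate number took up 97.0% of the variance of *PRDM1* within groups and 93.2%, 60.5% and 55.9% of that of *DOK3* at A_32_P121085, A_33_P3253144 and A_33_P3228564, against a median of 47.4% over 11988 probes. In H1299 cells the shares were 74.0% for *PRDM1* and 55.5%, 63.2% and 23.9% for the *DOK3* probes, against a median of 46.0%. *STEAP1* averaged 5.90, 6.05, 6.26, 6.24 and 6.22 in H1299*shRAD9* cells, with a share of 70.0%. *CD86* and *HKDC1* had shares of 35.3% and 30.2% in H1299*shRAD9* cells, below that line's median, and 75.2% and 57.3% in H1299 cells, above it there. Over the 20 irradiated H1299*shRAD9* arrays, with group means removed, Pearson's r of *PRDM1* was −0.75 with *DOK3* A_32_P121085, −0.43 with A_33_P3253144 and −0.34 with A_33_P3228564, and −0.75 with *STEAP1* A_23_P31453. That *STEAP1* probe had an r of 0.76, 0.68 and −0.19 with the same *DOK3* probes. The sign thus turned between probes of 1 gene, and A_33_P3228564 and A_32_P121085 had an r of −0.06 with each other. In the 20 H1299 arrays *PRDM1* had an r of 0.27, 0.73 and −0.45 with the *DOK3* probes and 0.06 with *STEAP1*, and *STEAP1* had −0.53, 0.30 and −0.46 with the *DOK3* probes. The arrays share 5 replicate numbers, so these values describe 5 sets of samples and not 20. What the numbers stand for, whether clone, culture or day, was not tested.

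**Figure D3:**
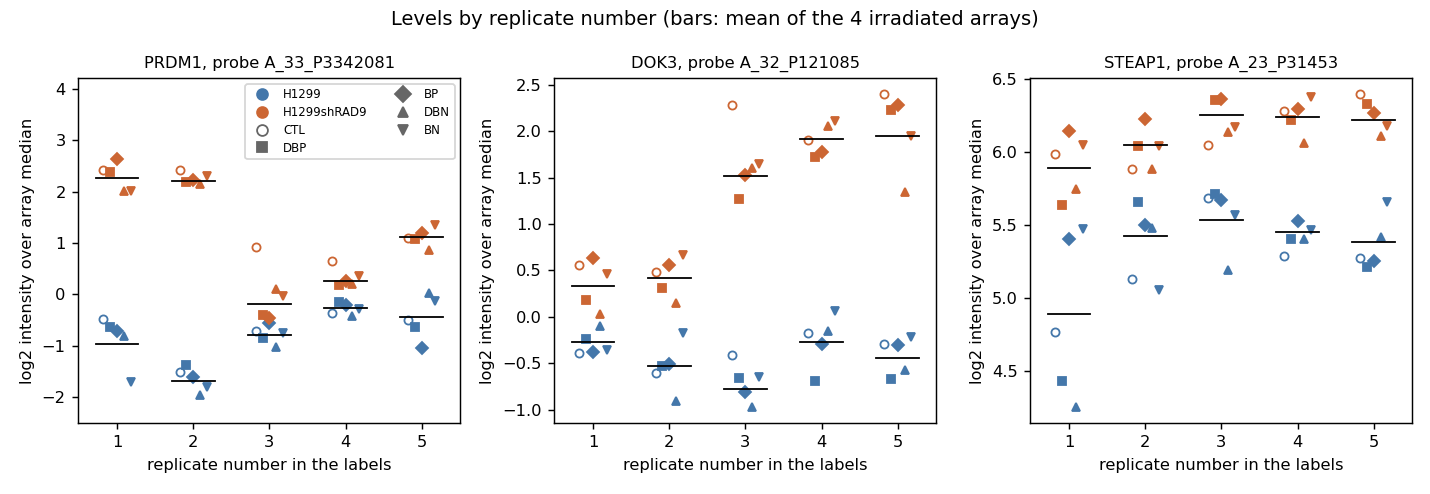
Level (log2 intensity over the array median, vertical axis) by replicate number (horizontal axis) for the genes named in the panels, with 1 point an array, a bar at the mean of the 4 irradiated arrays and the lines in different colours. In H1299*shRAD9* cells *PRDM1* is high in replicates 1 and 2 (means 2.25 and 2.21) where *DOK3* probe A_32_P121085 is low (0.33 and 0.42), which probe A_33_P3228564 (not plotted) did not share.

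On 1 slide that held H1299*shRAD9* arrays only, *PRDM1* was 2.14 and 2.30 in replicate 2 (DBN and BN) and −0.41 and −0.45 in replicate 3 (DBP and BP), so arrays of 1 slide held both high and low values, though on it the replicate number and the exposure group cannot be told apart. The lines could be compared within a slide for 1 group, BP, with replicate 1 of H1299*shRAD9* and replicate 5 of H1299. There the difference was 3.68 for *PRDM1*, 2.92 for *CD86*, 0.89 for *STEAP1*, 0.94 for *DOK3* A_32_P121085, −1.43 for *DOK3* A_33_P3228564 and −2.39 for *HKDC1*, with 1 array a line and no test. With slide as a random block in 1 fit of all groups, *PRDM1*, *STEAP1* A_23_P31453 and *DOK3* A_32_P121085 were called in all 4 irradiated groups. The calls of *CD86* in BP cells and *HKDC1* in DBP cells were lost (limma adjusted p = 0.0551 and 0.22). So were those of *DOK3* A_33_P3228564 in DBP and BN cells (limma adjusted p = 0.153 and 0.17). *STEAP1* A_24_P406334 and *DOK3* A_33_P3253144 gained a call in DBP cells (limma adjusted p = 0.00998 and 0.0173).

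Relatives of the members were read as well. *STEAP2* lies next to *STEAP1* and encodes a metalloreductase of the same family. It differed by 0.36 to 0.51, above 0 in all 4 irradiated groups as *STEAP1* did, and was not called in any of them (limma adjusted p = 0.13 to 0.2). *STEAP3* differed by 0.11 to 0.33 and was not called (limma adjusted p = 0.221 to 0.738), and *STEAP4* was below background. *HK1*, the widely expressed hexokinase and the next gene after *HKDC1*, went the other way. Its difference was −1.11 (DBP), −0.98 (BP), −1.13 (DBN) and −1.02 (BN), called lower in DBP and BN cells (limma adjusted p = 0.0417 and 0.0556). *HK2* varied too little to be tested, and *HK3* was below background.

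*DOK4*, an adaptor related to *DOK3*, was called lower in all 4 irradiated groups. Its difference was −1.21 (DBP), −1.08 (BP), −1.15 (DBN) and −1.02 (BN), with limma adjusted p of 0.00961 to 0.0257. *DOK6* differed by −0.41 to −0.34 and *DOK7* by −0.18 to 0.16, neither called. *DOK1* varied too little to be tested, and *DOK2*, *DOK5* and *CD80*, the B7 ligand that shares its receptors with *CD86*, were below background.

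**Figure D4:**
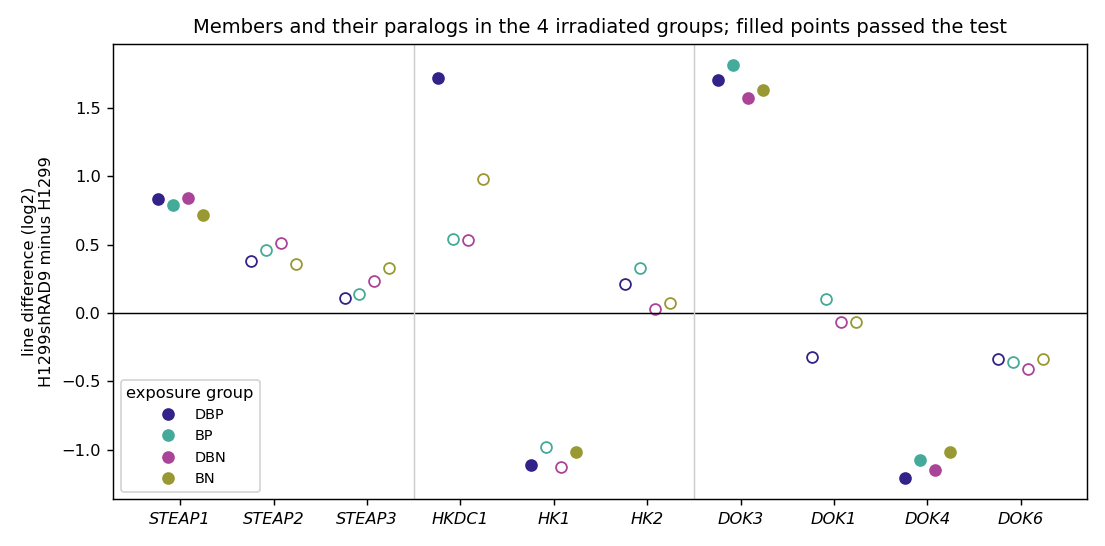
Difference between the lines (H1299*shRAD9* minus H1299, log2, vertical axis) for the members and their relatives (horizontal axis) in the 4 irradiated groups (colours), with filled points for calls. *DOK4* lies between −1.21 and −1.02 and *HK1* between −1.13 and −0.98, below 0, where *DOK3* and *HKDC1* lie above it. Relatives are plotted at their brightest probe, but *DOK3* at A_32_P121085, its probe with the largest differences (1.57 to 1.82). The brightest *DOK3* probe, A_33_P3228564 (not plotted), differed by 0.30 to 0.85.

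Gene lists around each member were counted with 1 probe a gene, its brightest, and with the member included. In DBP, BP, DBN and BN cells 3.25%, 6.3%, 4% and 6.27% of all probes were called higher and 4.91%, 3.4%, 2.67% and 4.03% lower. Of the PRDM family, 4 of 16 genes could be tested and *PRDM1* was the 1 called higher in each group, with list medians of 0.25 to 0.44. Of its partners and the plasma cell network, 9 of 17 were tested and *MYC*, a target of BLIMP-1 repression in B cells, was called higher in DBP and BP cells (1.01 and 0.74, limma adjusted p = 0.0441 and 0.0464). The list medians were −0.08 to 0.03, and *IRF4* was not above background on any array. Of the B7 list, 5 of 14 were tested and *CD86* in BP cells was the 1 call, with list medians of −0.08 to 0.37. Of the DOK list, 12 of 24 were tested, 1, 1, 0 and 1 called higher and 3, 1, 1 and 1 lower, with medians of −0.19 to 0.05. Of the hexokinase list, 9 of 19 were tested, 1, 1, 0 and 0 called higher and 1, 0, 0 and 2 lower, with medians of 0.09 to 0.29. Of the STEAP and iron list, 10 of 15 were tested, 2, 1, 1 and 1 called higher and 1, 0, 0 and 0 lower, with medians of −0.09 to 0.04.

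Markers of leukocytes, the cells in which 3 of the members are best known, were read on the same arrays. Of 12 listed, 11 were on the array and 7 were tested. *MS4A1* and *CD74* were above background on 0 of 50 arrays. *LCP1* was above it on 0 of 25 H1299*shRAD9* arrays and 21 of 25 H1299 arrays. *PTPRC*, which encodes CD45, was called higher in BP cells (1.19, limma adjusted p = 0.0421) and *CD79A* in BN cells (0.67, limma adjusted p = 0.0458), and no marker was called lower. List medians were 0.39, 0.37, 0.07 and 0.26 in DBP, BP, DBN and BN cells, against 0.18 to 0.23 for all probes.

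The nearest measured genes on each side of the members, by probe position, were mostly not called. They are not always adjacent genes, and some lie far away. *PREP* (832 kb) and *ATG5* (76.2 kb), around *PRDM1*, differed by −0.09 to 0.46 and varied too little to be tested. So did *PDLIM7* (12.9 kb) and *DDX41* (9.12 kb), around *DOK3*, with −0.22 to 0.38. *CCDC58* (245 kb) and *ILDR1* (132 kb), around *CD86*, differed by 0.22 to 1.13, and *ILDR1* was called higher in BP cells (0.93, limma adjusted p = 0.0345). *SUPV3L1*, 58.3 kb from *HKDC1*, differed by 0.40 to 0.63 and *SRI*, 1960 kb from *STEAP1*, by 0.35 to 0.70, neither called.

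The probes most like each member over all 50 arrays were found by Pearson's r among 19691 probes, as a description, since the arrays share lines and replicate numbers. *PRDM1* was most like *THBS1* (r = 0.92), *GNAS* (0.87) and *TMEFF2* (0.87). *THBS1* encodes thrombospondin, a secreted matrix protein, and its r was 0.85 within H1299*shRAD9* arrays and 0.74 within H1299 arrays. That of *GNAS* was 0.95 and 0.27, and that of *TMEFF2* 0.78 and 0.27. An r over both lines includes the difference between the lines on which the genes were chosen, and within the lines the r of the probes named here ran from 0.47 to 0.95 (H1299*shRAD9*) and from 0.27 to 0.95 (H1299). *STEAP1* was most like *ELMOD1* (0.94), *POLR3G* (0.93) and *FAM208B* (0.92). *HKDC1* was most like *KIAA1958* (0.87), *ACTRT2* (0.86) and *PADI6* (0.86), and *CD86* was most like *RPA4* (0.84), with 2 features named only by their sequence records (0.80 each) next. *DOK3*, at its brightest probe A_33_P3228564, was most like *CLEC12B*, *CD8A* and *KLF1* (0.93 each).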

How the data were processed

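RNA of 50 samples had been labelled with Cy3 and hybridised to 1-colour Agilent whole human genome arrays, and the deposited scanner files, per the file headers, hold the intensity of each spot after spatial background subtraction and detrending, with marks for spots well above background and for outliers, and hg19 positions. The authors also deposited a table of log2 values, median normalized and filtered to 9502 features, which was used as an alternative. From the processed intensity, log2 values minus the array median were computed, control spots and outlier spots were left out, and spots of a probe were averaged. Of 34127 probes, 20100 passed the background filter (features not well above background on 25% or more of the arrays were left out) and 12193 also differed by 1.3-fold from the median on at least 20% of the arrays. The members and gene lists were chosen with earlier results of these data known.

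Tests used limma 3.58.1 in R 4.3.3 with statmod 1.5.0, unpaired between lines and with the replicate number as a block within a line, as the methods name matched samples. The pairing check gave a mean correlation of same-numbered deviations of 0.493 to 0.61 within H1299*shRAD9* (lowest pair 0.22), 0.142 to 0.423 within H1299 (lowest pair −0.207) and −0.057 to 0.088 between lines. Calls needed p under 0.006 and a Benjamini-Hochberg adjusted p under 10% over all 12193 probes. The scripts were tested on simulated data. Genes named were all probes of the members, *RAD9A*, relatives and neighbours of members whatever their values, the 3 probes most like each member, and in each list up to 3 genes called in at least 2 irradiated line comparisons, together with markers and *ILDR1*, *PTPRC*, *CD79A*, *IRF4* and *LCP1*, named after their values were seen. Alternatives changed the scaling, background correction, filters, fit, test, input, block, slide and replicates.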

Additional observations from a re-analysis of the deposited data

Results flagged for a closer look

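Of 100 groups of 5 arrays, over the 10 member probes, 7 held 1 array whose gap to its nearest neighbour took up more of the group's range than Dixon's 95% critical value of 0.71, and chance gives about 1 group in 20. *CD86* stood at 2.66 in replicate 3 of unirradiated H1299*shRAD9* cells, where the next array was at 1.38. It stood at −0.56 in replicate 3 of H1299*shRAD9* BN cells, where the next was at 0.49. *STEAP1* was low in replicate 1 of H1299, at 4.25 (A_23_P31453) and 2.82 (A_24_P406334) in DBN cells and at 3.35 (A_24_P406334) in DBP cells, against next values of 5.19, 4.66 and 4.58. *DOK3* was at 0.66 (A_33_P3228564) in replicate 5 of H1299*shRAD9* DBN cells and at −0.56 (A_33_P3253144) in replicate 2 of H1299 DBP cells, against 1.49 and 0.03.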

How the results depend on the processing

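Over all alternatives of the 32 line differences, 408 values kept their direction and side of the thresholds, 85 lost a call, 11 gained one and 4 changed sign. The cause was not tested for any of these. The count of member probes called higher, 5, 5, 4 and 4 of 8 in DBP, BP, DBN and BN cells, became 2 (DBP) and 3 (BP) with 75th percentile scaling, 3 (DBP) and 2 (BN) with quantile normalization, 0 (BN) with normexp, and 2, 2, 1 and 2 of the 5 probes in the authors' table. Leaving out 1 replicate number at a time gave 1 to 4 (DBP), 2 to 4 (BP), 0 to 4 (DBN) and 2 to 4 (BN), and the number of all probes called moved as well, from 813 to 95 without replicate 3 and to 81 without replicate 4 in DBN cells. With normexp it fell from 1255 to 28 in BN cells. Without the H1299*shRAD9* BP array of replicate 1, chosen after seeing the data, 3 member probes were called higher in BP cells, and 767 of all 12193 probes. With all groups in 1 fit, 2 member probes were called in H1299*shRAD9* DBN against CTL cells, where none was otherwise, on the CTL arrays that chose the genes. Over all probes 863 of 12193 were called there. The other member counts were 0 throughout, also without each replicate. Signs turned without replicate 3 for *HKDC1* and *DOK3* A_33_P3228564 in BP cells, which ran from −0.04 to 1.72 and from −0.08 to 0.71 as each replicate was left out. For *CD86* in DBN cells they turned without replicate 2 (−0.28 to 1.17 over the replicates) and in the authors' table (−0.28).

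The replicate number as a block between the lines, where the samples share only a number, gave 6, 5, 4 and 6 called member probes in DBP, BP, DBN and BN cells and lost no call, and over all probes 1042, 833, 929 and 1146 calls in place of 995, 1183, 813 and 1255. Without the block within a line no member call was gained or lost, while calls over all probes fell from 275 to 17 (DBP), 231 to 0 (BP), 567 to 74 (DBN) and 6 to 0 (BN) against CTL in H1299*shRAD9* cells. Slide as a random block could not be fitted for 1 line comparison alone, since hardly any arrays of those groups shared a slide, and was replaced, after seeing the data, by 1 fit of all groups. The number of arrays, 5 a group, and the nearness of *HKDC1* and of the second *PRDM1* probe to background limit the precision.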

Other observations

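Genes of the NF-κB pathway, which acts upstream or downstream of several of the members in immune cells, were listed as well, and 10 of 22 could be tested. *ICAM1*, which encodes an adhesion molecule, was lower in H1299*shRAD9* cells in all 4 irradiated groups, with line differences of −2.29 (DBP), −2.17 (BP), −2.02 (DBN) and −1.94 (BN) on the log2 scale (limma adjusted p = 0.0152 to 0.0301). *NFKBIB*, which encodes an inhibitor of NF-κB, was higher by 0.70, 0.71, 0.85 and 0.57 and called in DBP, BP and DBN cells (limma adjusted p = 0.0441, 0.051 and 0.0563). In DBP, BP, DBN and BN cells 1, 1, 1 and 0 of the 10 were called higher and 2, 1, 1 and 1 lower, with list medians of −0.13 to 0.20. Of 6 fibroblast markers 2 could be tested. *ACTA2*, smooth muscle actin, was called lower in DBP, BP and DBN cells (−0.85, −0.61 and −0.81, limma adjusted p = 0.0147, 0.0614 and 0.0738), and *LUM* and *PDGFRB* were above background on 0 of 50 arrays.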
